A study of Mus musculus with 16 samples.

Results

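The transcripts described here are those of the 4 secreted osteoclast signals *Tnfsf11* (RANKL), *Tnfrsf11b* (osteoprotegerin), *Csf1* (CSF1) and *Il34* (IL34). They were taken by gene symbol, and they are 4 of the 55414 genes counted in 16 RNA-Seq libraries of mouse chondrocytes. The cultures were enriched for chondrocytes and prepared from long bone epiphyses of pups aged 3 to 4 days. The control cells came from wild-type littermates and the mutant cells from heterozygous *Notch2tm1.1Ecan* mice on a C57BL/6 background, whose allele ends *Notch2* translation ahead of the PEST domain and yields a stable, active NOTCH2 from the global locus in every cell type. Cells of male and female pups were pooled, and confluent cultures received either PBS as vehicle or 50 ng/ml of TNFα during 6 h, which made 4 groups (control vehicle, *Notch2tm1.1Ecan* vehicle, control TNFα and *Notch2tm1.1Ecan* TNFα) with 4 libraries each. Serum was withdrawn from the TNFα groups only according to the sample annotation and from all groups according to the published legend, so that TNFα and removal of serum cannot be told apart if the annotation holds. The labels number the 4 libraries of a group as biological replicates, but nothing states that they came from separate litters. The p values then measure the spread between these cultures.

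Osteoclasts form from cells of the monocyte and macrophage lineage, which need a RANK signal and a CSF1 receptor signal. RANKL is presented or shed by stromal cells, osteoblasts, chondrocytes and lymphocytes and binds RANK, whereas osteoprotegerin is a soluble decoy receptor that traps RANKL, so that the balance of both is the usual summary of the stimulus. CSF1 and IL34 are unrelated in sequence and share the receptor CSF1R, through which precursors survive and proliferate. In the growth plate, chondrocytes make RANKL and osteoprotegerin next to the front where mineralized cartilage is resorbed, and TNFα is known to favor osteoclast formation.

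All 4 genes lie on the minus strand of GRCm39 and are protein coding: *Tnfsf11* (ENSMUSG00000022015) at chr14:78514885-78545490, *Tnfrsf11b* (ENSMUSG00000063727) at chr15:54114015-54142075, *Csf1* (ENSMUSG00000014599) at chr3:107648364-107667806 and *Il34* (ENSMUSG00000031750) at chr8:111423928-111532584. The promoters of *Tnfsf11* and *Csf1* are shown because both transcripts rose with TNFα, which acts through NF-κB, while their genes were searched for the same motifs. RefSeq sequences of 250 bases ahead of the transcript start (GRCm38.p6, strand of the gene, 5′ to 3′) were at chr14:78308044-78308293 and chr3:107760470-107760719. *Tnfrsf11b* and *Il34* were not matched in that table. Capitals mark the match to the NF-κB consensus of 10 bases.
Tnfsf11 promoter: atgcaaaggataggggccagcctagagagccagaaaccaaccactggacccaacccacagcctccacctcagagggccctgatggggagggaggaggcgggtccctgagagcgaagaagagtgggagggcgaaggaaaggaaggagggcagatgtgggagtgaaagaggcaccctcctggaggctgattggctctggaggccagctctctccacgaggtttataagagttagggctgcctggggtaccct
Csf1 promoter: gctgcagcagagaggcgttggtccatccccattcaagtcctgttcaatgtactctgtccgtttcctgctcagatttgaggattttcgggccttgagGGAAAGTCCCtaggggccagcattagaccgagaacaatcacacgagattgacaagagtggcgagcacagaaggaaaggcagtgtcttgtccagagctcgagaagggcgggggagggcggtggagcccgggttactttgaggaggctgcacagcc
The *Csf1* promoter held 1 match, which read along the opposite strand and lay 154 to 145 bases ahead of the start. The *Tnfsf11* promoter held none in this window. Neither held TGGGAA, the core bound by the Notch mediator RBPJ, or TGANTCA, the AP-1 site, on either strand. Over 32851 promoters of the same length, 7.25% held the NF-κB consensus, 21.6% TGGGAA and 6.75% TGANTCA, so the *Csf1* match is a description of the sequence.

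Libraries held 3439726 to 44237300 counts on genes (median 17062419), and the shallowest was *Notch2tm1.1Ecan* TNFα replicate 4. Gene counts do not separate the mutant from the wild-type *Notch2* allele, so the Notch target *Heyl* served to check the genotype. It was 0.152 to 0.298 counts per 1000000 counts (CPM) in control vehicle and 1.44 to 2.28 CPM in *Notch2tm1.1Ecan* vehicle libraries, with no overlap also under TNFα. *Heyl* counts were low, at 2 to 5 in control vehicle and 1 to 10 in control TNFα libraries. The Notch targets *Hes1* and *Hey1* were called higher in *Notch2tm1.1Ecan* cells with vehicle but not with TNFα. Control vehicle replicate 4 stood apart from its group, with 439 CPM of the TNFα target *Icam1* against 34.4 to 40.4 CPM in the other 3 libraries, and control TNFα replicate 4 had the lowest *Icam1* of its group (2312 CPM). Members are therefore given with and without these libraries where that matters. All 10 chondrocyte markers were detected, at a summed 49370 to 53210 CPM in control vehicle libraries. Values below are CPM scaled with TMM factors unless counts are named, and a gene is called changed at an edgeR quasi-likelihood adjusted p under 0.05.

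Per kilobase of exon, *Csf1* was the most abundant of the signals in each group and *Tnfsf11* the least. In control vehicle cells, *Csf1* was at 252 ± 5.15, *Tnfrsf11b* at 154 ± 6.21, *Il34* at 1.40 ± 0.455 and *Tnfsf11* at 0.610 ± 0.131 CPM per kilobase (SD, n = 4). These levels placed *Csf1* 79th, *Tnfrsf11b* 152nd, *Il34* 10346th and *Tnfsf11* 12472nd among 28311 genes with counts. With TNFα, *Il34* moved up to place 4350 in control and 3397 in *Notch2tm1.1Ecan* cells, and *Tnfrsf11b* moved down to places 315 and 876. Chondrocyte cultures thus held abundant transcripts of the decoy receptor and of CSF1 beside scarce transcripts of RANKL and IL34.

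**Figure D1:**
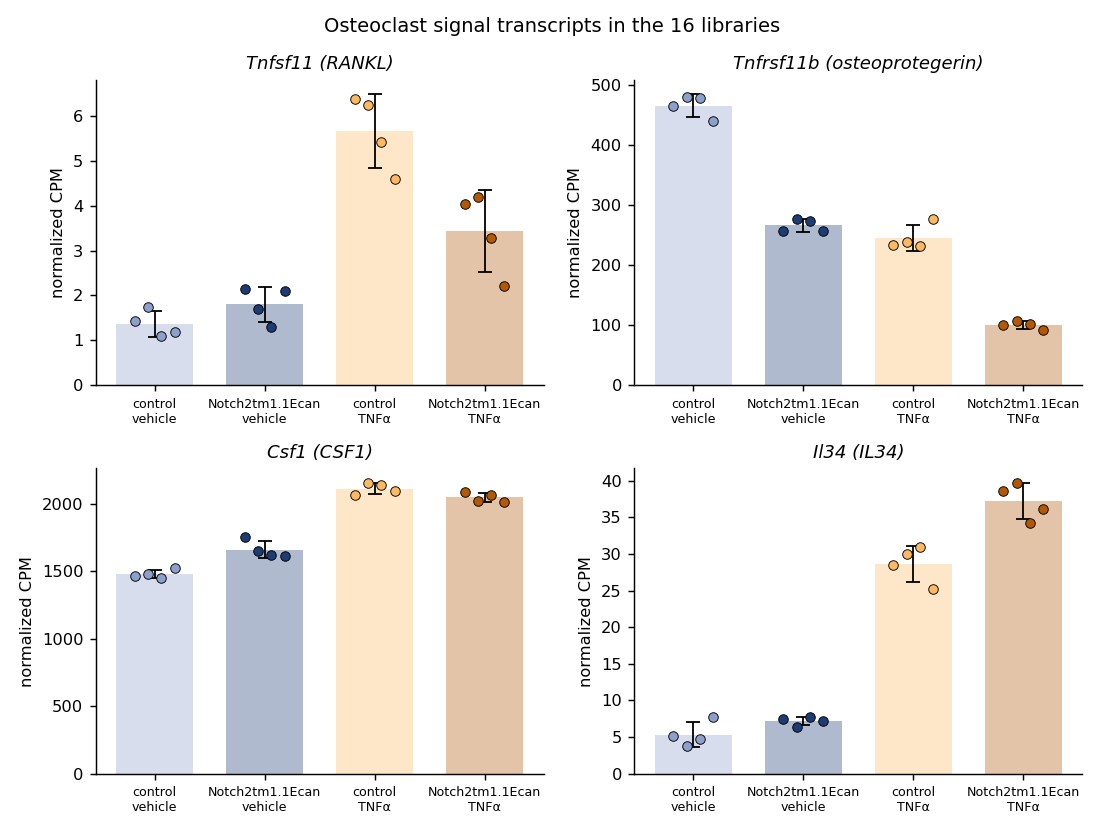
Normalized CPM (vertical axes, each from 0) of the 4 transcripts by group. Points are the 4 libraries of a group in replicate order, bars are means and error bars are SD. *Tnfrsf11b* is lowest in *Notch2tm1.1Ecan* TNFα libraries (91.9 to 107 CPM), *Tnfsf11* is highest in control TNFα libraries (4.60 to 6.38 CPM), and *Il34* is highest in *Notch2tm1.1Ecan* TNFα libraries (34.3 to 39.7 CPM).

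*Tnfsf11* encodes RANKL, the ligand that drives differentiation of the osteoclast. Its raw counts were 26, 23, 17 and 20 in control vehicle libraries and 31, 33, 25 and 91 in *Notch2tm1.1Ecan* vehicle libraries. With TNFα the counts were 81, 114, 93 and 88 in control and 61, 72, 56 and 8 in *Notch2tm1.1Ecan* libraries. The last of these, 8 counts in the shallowest library, gave 2.21 CPM with an exact 95% Poisson interval of 0.953 to 4.35 CPM, which covers counting error only.
Scaled for depth, *Tnfsf11* was 1.44, 1.75, 1.09 and 1.19 CPM in control vehicle and 2.14, 1.69, 1.30 and 2.09 CPM in *Notch2tm1.1Ecan* vehicle libraries, and these groups overlapped. It was 6.38, 6.26, 5.42 and 4.60 CPM in control TNFα libraries and 4.04, 4.21, 3.28 and 2.21 CPM in *Notch2tm1.1Ecan* TNFα libraries, and every control library lay above every mutant one. In order of level, control vehicle and *Notch2tm1.1Ecan* vehicle did not differ beyond their spread, *Notch2tm1.1Ecan* TNFα came next, and control TNFα was highest.

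TNFα raised *Tnfsf11* 4.16-fold in control cells (log2 2.06 ± 0.20 SE, adjusted p = 2.42e-08) and 2.00-fold in *Notch2tm1.1Ecan* cells (log2 1.00 ± 0.22, adjusted p = 0.000409). Between genotypes, *Tnfsf11* with vehicle differed by log2 0.42 (95% interval -0.09 to 0.93, adjusted p = 0.345). With TNFα it was 1.53-fold lower in *Notch2tm1.1Ecan* than in control cells (log2 -0.61 ± 0.18, adjusted p = 0.0245). That call was lost without control TNFα replicate 1 (adjusted p = 0.0736) or 2 (0.0771) or without *Notch2tm1.1Ecan* TNFα replicate 3 (0.0971), while the direction held in each. The difference between the TNFα effects was log2 -1.05 (95% interval -1.67 to -0.43), with an unadjusted p of 0.00142 and an adjusted p of 0.137, so a smaller TNFα effect on *Tnfsf11* in mutant cells did not pass the threshold.

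*Tnfrsf11b* encodes osteoprotegerin, the decoy that RANKL meets before it meets RANK. Control vehicle libraries held 465, 479, 478 and 439 CPM, and *Notch2tm1.1Ecan* vehicle libraries 257, 276, 274 and 257 CPM. Control TNFα libraries held 233, 238, 231 and 276 CPM, and *Notch2tm1.1Ecan* TNFα libraries 101, 107, 102 and 91.9 CPM. Control vehicle stood above all other groups and *Notch2tm1.1Ecan* TNFα below all others, whereas the ranges of *Notch2tm1.1Ecan* vehicle and control TNFα overlapped. The highest control TNFα value came from replicate 4, one of the libraries that stood apart.

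The mutation alone and TNFα alone each lowered *Tnfrsf11b*. *Tnfrsf11b* fell 1.89-fold with TNFα in control cells (log2 -0.92 ± 0.05 SE, adjusted p = 3.81e-11) and 2.63-fold in *Notch2tm1.1Ecan* cells (log2 -1.40 ± 0.06, adjusted p = 1.38e-16). It was 1.74-fold lower in *Notch2tm1.1Ecan* than in control cells with vehicle (log2 -0.80 ± 0.05, adjusted p = 6.73e-11) and 2.40-fold lower with TNFα (log2 -1.27 ± 0.07, adjusted p = 3.01e-13). With TNFα, 36 of the 829 genes that were lower in *Notch2tm1.1Ecan* cells had a larger fall than *Tnfrsf11b*.
The effects did not simply multiply. Their product from the single conditions was 139.8 CPM, and the observed mean with both was 100.4 CPM, or 21.6% of control vehicle. The interaction passed the test at log2 -0.47 (95% interval -0.65 to -0.30, adjusted p = 0.00383), where 0.474% of all genes tested did so in either direction, 0.267% higher and 0.206% lower, and 0.0469% with an absolute log2 value of at least 1. Without both control replicates 4 it was log2 -0.38 (adjusted p = 0.00819).

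*Csf1* encodes the factor that keeps osteoclast precursors alive. It was 1467, 1482, 1451 and 1522 CPM in control vehicle libraries and 1758, 1652, 1622 and 1618 CPM in *Notch2tm1.1Ecan* vehicle libraries, which did not overlap. With TNFα it was 2066, 2156, 2140 and 2097 CPM in control and 2086, 2024, 2069 and 2017 CPM in *Notch2tm1.1Ecan* libraries, which did. *Csf1* was thus lowest in control vehicle cells, and the TNFα groups were highest and did not differ beyond their spread.
TNFα raised *Csf1* 1.44-fold in control cells (log2 0.52 ± 0.03 SE, adjusted p = 8.27e-11) and 1.23-fold in *Notch2tm1.1Ecan* cells (log2 0.30 ± 0.05, adjusted p = 3.85e-05). With vehicle, *Csf1* was 1.13-fold higher in *Notch2tm1.1Ecan* cells (log2 0.17 ± 0.05, adjusted p = 0.0169). That small difference lost its call without control vehicle replicate 1 (adjusted p = 0.0720), 2 (0.0565) or 3 (0.0678). With TNFα the genotypes differed by log2 -0.03 (95% interval -0.15 to 0.09, adjusted p = 0.816). The interaction was log2 -0.21 (95% interval -0.34 to -0.08, adjusted p = 0.173), and DESeq2 called it (adjusted p = 0.0403). Of the 5877 exon bases of *Csf1*, 159 overlap a gene on the opposite strand that is not among the genes counted.

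*Il34* encodes the second ligand of CSF1R. Control vehicle libraries held 5.09, 3.73, 4.76 and 7.80 CPM, and the highest came from replicate 4, the library with 439 CPM of *Icam1*. *Notch2tm1.1Ecan* vehicle libraries held 7.51, 6.41, 7.78 and 7.16 CPM, each above the first 3 control libraries and below the fourth. With TNFα, *Il34* was 28.4, 30.0, 31.0 and 25.2 CPM in control and 38.7, 39.7, 34.3 and 36.1 CPM in *Notch2tm1.1Ecan* libraries, with no overlap.
TNFα raised *Il34* 5.31-fold in control cells (log2 2.41 ± 0.17 SE, adjusted p = 6.60e-07) and 5.19-fold in *Notch2tm1.1Ecan* cells (log2 2.38 ± 0.09, adjusted p = 7.30e-18), and the interaction was log2 -0.03 (95% interval -0.39 to 0.33, adjusted p = 0.987). *Il34* was 1.31-fold higher in *Notch2tm1.1Ecan* than in control cells with TNFα (log2 0.39 ± 0.08, adjusted p = 0.00117). With vehicle the difference was log2 0.43 (95% interval 0.07 to 0.79, adjusted p = 0.140), and it became log2 0.65 (adjusted p = 0.00288) without control vehicle replicate 4. Of the 3810 exon bases of *Il34*, 100 overlap *Vac14*, 75 *Gm15895* and 22 *Gm15894* on the opposite strand. Reads there cannot be told apart without the strand setting of the counting. *Gm15895* had 0, 0, 0 and 6 counts in control vehicle and 16, 9, 10 and 11 in control TNFα libraries. In *Notch2tm1.1Ecan* libraries it had 0, 2, 2 and 0 counts with vehicle and 9, 9, 2 and 7 with TNFα. The mean level of *Vac14* was 32.8, 32.7, 37.6 and 38.4 CPM in control vehicle, *Notch2tm1.1Ecan* vehicle, control TNFα and *Notch2tm1.1Ecan* TNFα cells.

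**Figure D2:**
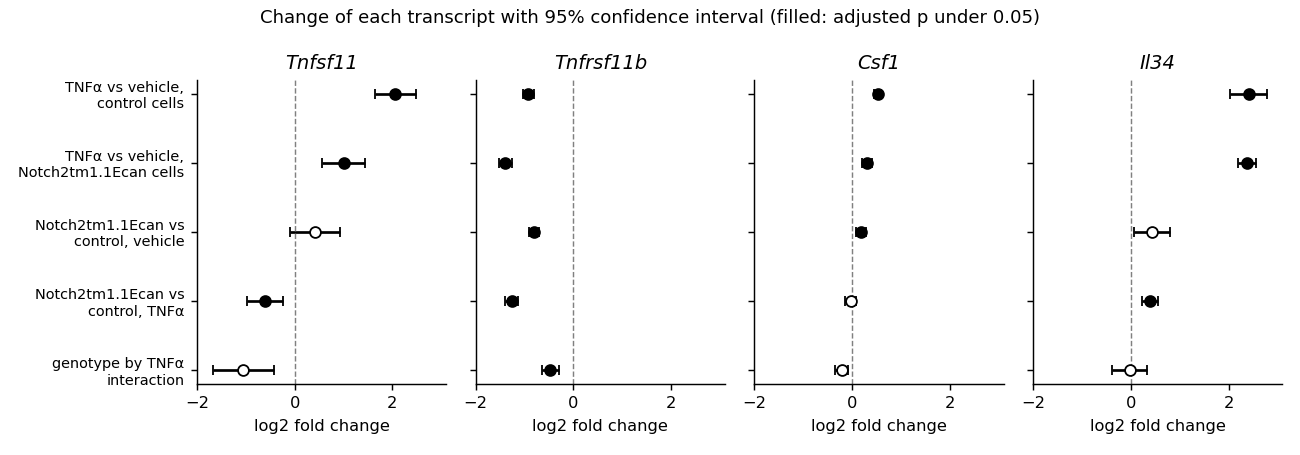
Log2 fold change (horizontal axes) of each transcript in the 4 comparisons of groups and in the interaction. Points are edgeR estimates, bars are 95% confidence intervals and filled points have an adjusted p under 0.05. *Tnfrsf11b* lies left of 0 throughout (log2 -1.40 to -0.47), and *Tnfsf11* lies right of 0 for TNFα and left of 0 for genotype under TNFα (log2 -0.61).

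All 4 transcripts were called in both TNFα comparisons, against 44.2% of the genes tested in control and 44.5% in *Notch2tm1.1Ecan* cells. Of the 4, 3 rose and 1 fell, and over all genes 23.3% rose and 20.9% fell in control and 22.6% rose and 21.9% fell in *Notch2tm1.1Ecan* cells. Between genotypes, *Csf1* was higher and *Tnfrsf11b* lower with vehicle, 2 of 4 against 10.5% of genes (6.19% higher, 4.35% lower). With TNFα, *Il34* was higher and *Tnfsf11* and *Tnfrsf11b* lower, 3 of 4 against 9.94% of genes (5.63% higher, 4.31% lower). With an absolute log2 fold change of at least 1 as a further condition, 2 of 4 were called for TNFα in control cells against 11.8% of genes, 3 of 4 in *Notch2tm1.1Ecan* cells against 13.9%, 0 of 4 for genotype with vehicle against 1.26%, and 1 of 4, *Tnfrsf11b*, with TNFα against 1.41%. Groups did not overlap for 4 of 4 in each TNFα comparison, where 41.8 and 40.3% of all genes showed this, for 2 of 4 between genotypes with vehicle (16.2% of genes) and for 3 of 4 with TNFα (14.8%). The TNFα comparison of each genotype shares its vehicle libraries with the vehicle comparison of genotypes, so these calls are not independent of each other.

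The Tnfsf11 to Tnfrsf11b ratio does not depend on library size. Control vehicle libraries had 3.09, 3.66, 2.29 and 2.71 *Tnfsf11* counts per 1000 *Tnfrsf11b* counts, and *Notch2tm1.1Ecan* vehicle libraries had 8.31, 6.13, 4.74 and 8.15. With TNFα the ratio was 27.4, 26.3, 23.5 and 16.7 per 1000 in control and 40.2, 39.2, 32.2 and 24.0 per 1000 in *Notch2tm1.1Ecan* libraries. The vehicle groups did not overlap each other or the TNFα groups, whereas the TNFα groups overlapped. On counts per base of exon the means were 3.94, 9.18, 31.5 and 45.5 per 1000 in the order control vehicle, *Notch2tm1.1Ecan* vehicle, control TNFα and *Notch2tm1.1Ecan* TNFα, so transcripts of the decoy remained far in excess of those of the ligand.

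The ratio was 7.82-fold higher with TNFα in control cells and 5.02-fold higher in *Notch2tm1.1Ecan* cells, and 2.28-fold higher in *Notch2tm1.1Ecan* than in control cells with vehicle. Each of these 3 differences had an exact two-sided permutation p of 0.0286, the smallest that 4 against 4 libraries allow, and 0.0476 after adjustment over 5 tests. With TNFα the ratio was 1.47-fold higher in *Notch2tm1.1Ecan* than in control cells (exact permutation p = 0.0857, adjusted p = 0.107). The interaction was log2 -0.64 (exact permutation p = 0.281). That test permuted genotype labels within each treatment, so a genotype effect common to both treatments raises its p. It therefore cannot decide whether the TNFα effects on the ratio differed. Without control vehicle replicate 3 the adjusted exact p became 0.0714 for TNFα in control cells and 0.0952 for genotype with vehicle. That library had the lowest ratio of its group, so neither pair of groups overlapped without it. With 1 library left out, these differences were log2 2.86 to 3.12 and 1.08 to 1.35. An exact p takes coarse steps with few libraries and its adjustment depends on the other tests, so these losses do not show dependence on that library. Without *Notch2tm1.1Ecan* TNFα replicate 4, which had 8 *Tnfsf11* counts, the genotype difference under TNFα was log2 0.69 with an adjusted exact p of 0.0357.
The numerator and denominator behaved differently in these comparisons. With TNFα both moved, *Tnfsf11* up and *Tnfrsf11b* down. Between genotypes with vehicle only *Tnfrsf11b* passed its test, and between genotypes with TNFα both *Tnfsf11* and *Tnfrsf11b* were lower.

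**Figure D3:**
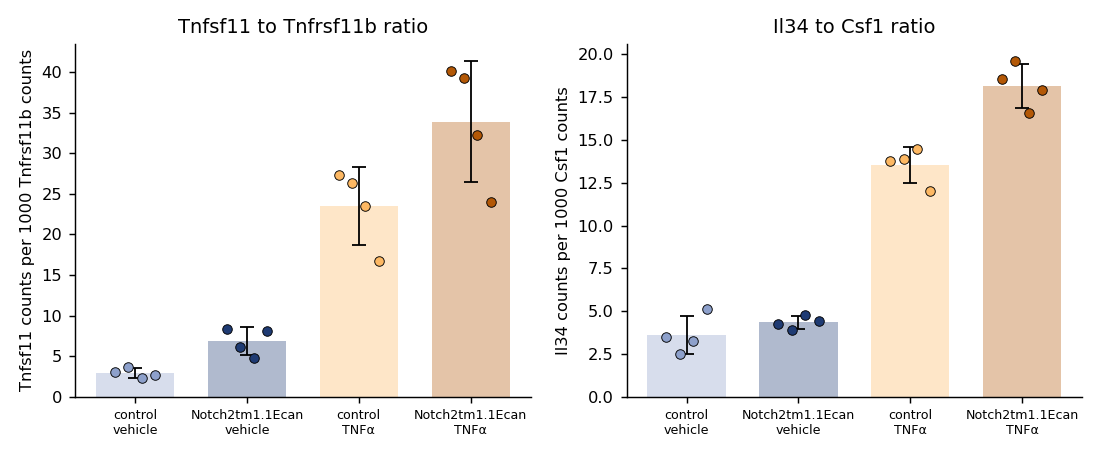
Counts of *Tnfsf11* per 1000 counts of *Tnfrsf11b* (left) and of *Il34* per 1000 counts of *Csf1* (right) by group, on axes from 0. Points are libraries in replicate order, bars are means and error bars are SD. The mean *Tnfsf11* to *Tnfrsf11b* ratio was 2.94 in control vehicle, 6.83 in *Notch2tm1.1Ecan* vehicle, 23.5 in control TNFα and 33.9 in *Notch2tm1.1Ecan* TNFα libraries.

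The balance of the CSF1R ligands moved toward *Il34* with TNFα. There were 3.47, 2.52, 3.28 and 5.12 *Il34* counts per 1000 *Csf1* counts in control vehicle and 4.27, 3.88, 4.80 and 4.42 in *Notch2tm1.1Ecan* vehicle libraries, which overlapped. With TNFα there were 13.8, 13.9, 14.5 and 12.0 in control and 18.5, 19.6, 16.6 and 17.9 in *Notch2tm1.1Ecan* libraries, which did not. TNFα raised the ratio 3.86-fold in control and 4.18-fold in *Notch2tm1.1Ecan* cells, and the ratio under TNFα was 1.34-fold higher in *Notch2tm1.1Ecan* than in control cells (each exact permutation p = 0.0286, adjusted p = 0.0476). With vehicle the genotypes differed 1.24-fold (exact permutation p = 0.229), and without control vehicle replicate 4 by log2 0.50 with an adjusted exact p of 0.0357. The interaction was log2 0.11 (exact permutation p = 0.711), from the same permutation of genotype labels and with the same limit. *Csf1* remained the major transcript of the pair throughout.

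The rest of the pathway was read from 6 lists with 53 genes. In control cells TNFα raised 27 and lowered 10 of the 45 that could be tested, where 23.3% of all genes rose and 20.9% fell. In *Notch2tm1.1Ecan* cells it raised 28 and lowered 12 of 46, against 22.6 and 21.9% of all genes. Between genotypes, 10 were higher and 4 lower of 43 with vehicle (6.19 and 4.35% of all genes), and 11 higher and 1 lower of 47 with TNFα (5.63 and 4.31%). The interaction called 1 of 48 against 0.474% of all genes, the oncostatin M receptor *Osmr* (log2 0.40 ± 0.09 SE, adjusted p = 0.0319). That call held in 7 of the 16 fits that left out a library (adjusted p 0.0323 to 0.0905) and was lost with the replicate number as a block. The median log2 fold change of the tested genes was 0.78 and 0.65 for TNFα in control and *Notch2tm1.1Ecan* cells, beside 0.04 and 0.03 over all genes, and 0.04 and 0.15 for genotype with vehicle and TNFα, beside -0.00 and -0.01.

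Among the receptors, RANK itself was scarce. *Tnfrsf11a* (RANK) was at 0.641 ± 0.132 CPM (SD, n = 4) in control vehicle cells and rose with TNFα in control cells (log2 1.12, adjusted p = 0.00635), and in *Notch2tm1.1Ecan* cells it differed by log2 -0.15 (adjusted p = 0.781). *Csf1r*, the receptor of CSF1 and IL34, was 6.85, 8.22, 8.30 and 6.01 CPM in control vehicle and 14.7, 14.5, 14.7 and 14.0 CPM in *Notch2tm1.1Ecan* vehicle libraries. It was 1.98-fold higher in *Notch2tm1.1Ecan* cells with vehicle (adjusted p = 9.51e-07) and 2.35-fold higher with TNFα (adjusted p = 2.29e-09). *Lgr4*, a further receptor of RANKL, fell with TNFα by log2 0.65 in control and 0.67 in *Notch2tm1.1Ecan* cells.
*Csf1r* and *Tnfrsf11a* mark myeloid cells, and macrophage markers moved with genotype as *Csf1r* did, whereas *Tnfrsf11a* was not called between genotypes. Of 10 such markers, 7 were higher in *Notch2tm1.1Ecan* cells with vehicle and 8 with TNFα, where 6.19 and 5.63% of all genes were higher, and none was at 3 counts or fewer in every library of a group. Their summed level was 66.4 to 70.7 CPM in control and 120 to 143 CPM in *Notch2tm1.1Ecan* vehicle libraries, and 77.7 to 90.5 and 154.5 to 182 CPM with TNFα. In bulk RNA, fewer cells of a type and less RNA per cell cannot be told apart, and the part of these cells in the values of the 4 signals was not tested.

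Chondrocyte markers moved with *Tnfrsf11b* in the comparisons of groups. In the interaction only 1 of 10 was called, *Matn1*, which was lower, against 0.206% of all genes. Its call was lost in some fits that left out a library. All 10 were lower in *Notch2tm1.1Ecan* than in control cells under both treatments, where 4.35% of all genes were lower with vehicle and 4.31% with TNFα. With single libraries left out, some of these calls with vehicle were lost, for *Hapln1* (adjusted p up to 0.0992) and *Matn3* (0.0511). Under TNFα the same held for *Sox9* (adjusted p up to 0.133) and *Acan* (up to 0.0715), while the direction stayed in each. With TNFα, 9 of 10 were lower in each genotype, where 20.9% of all genes fell in control and 21.9% in *Notch2tm1.1Ecan* cells. Their summed level was 49370 to 53210 CPM in control vehicle, 30890 to 35780 in *Notch2tm1.1Ecan* vehicle, 35470 to 42170 in control TNFα and 19400 to 21920 in *Notch2tm1.1Ecan* TNFα libraries. *Comp*, which did not pass the test with TNFα, was the exception among them, and in control cells it was called without control TNFα replicate 4 (log2 -0.06). The part of the cell composition in the fall of *Tnfrsf11b* was not tested.
Fibroblast markers summed to 20030 to 21980 CPM in control and 23510 to 25440 CPM in *Notch2tm1.1Ecan* vehicle libraries, and to 19960 to 21820 and 23690 to 28130 CPM with TNFα, and 3 of 6 were higher and 2 lower in *Notch2tm1.1Ecan* cells with vehicle, against 6.19 and 4.35% of all genes. Endothelial markers summed to 6.52 to 8.75 and 15.2 to 19.4 CPM with vehicle and to 9.04 to 12.0 and 17.2 to 22.2 CPM with TNFα, and 3 of 5 were higher in *Notch2tm1.1Ecan* cells under each treatment, against 6.19% of all genes with vehicle and 5.63% with TNFα. These were *Cdh5*, *Tek* and *Pecam1* with vehicle and *Cdh5*, *Tek* and *Kdr* with TNFα. Counts were low, with 2 to 10 for *Cdh5* and 8 to 16 for *Pecam1* in control vehicle libraries. Some fits that left out a library lost the calls of *Pecam1* with vehicle and of *Cdh5* and *Kdr* with TNFα. T cells are another source of RANKL. Of their 6 markers, *Cd3d*, *Cd3e*, *Cd3g* and *Cd8a* had 3 counts or fewer in each library and *Cd4* at most 9. *Trac*, which encodes the constant part of a T cell receptor chain, had 18 to 53 counts (1.39 ± 0.380 CPM, SD, n = 4) in *Notch2tm1.1Ecan* vehicle and 3 to 9 counts (0.361 ± 0.133 CPM) in control vehicle libraries, and it was 3.76-fold higher in the former (adjusted p = 0.000603). *Trac* fell with TNFα in *Notch2tm1.1Ecan* cells (log2 -2.44, adjusted p = 1.77e-05). It was also called lower with TNFα in control cells (log2 -1.93). With single libraries left out, some fits no longer called this fall in control cells (adjusted p up to 0.0843). The 6 markers summed to 0.298 to 0.608 CPM in control vehicle, 0.986 to 2.00 in *Notch2tm1.1Ecan* vehicle, 0.0549 to 0.470 in control TNFα and 0.351 to 0.760 CPM in *Notch2tm1.1Ecan* TNFα libraries, and the part of these cells in *Tnfsf11* was not tested.

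The list of enzymes that shed RANKL and of the other osteoprotegerin ligand moved with TNFα. *Adam17*, a sheddase, rose from 88.8 ± 14.4 to 265 ± 17.5 CPM (SD, n = 4) in control cells (log2 1.58, adjusted p = 1.65e-05) and from 80.2 ± 7.69 to 252 ± 18.1 CPM in *Notch2tm1.1Ecan* cells (log2 1.65, adjusted p = 6.61e-17). *Mmp14*, another protease that cleaves RANKL, rose by log2 0.21 and 0.27 and was higher in *Notch2tm1.1Ecan* cells with TNFα by log2 0.26. *Tnfsf10* (TRAIL), which osteoprotegerin also binds, had 27 counts in control vehicle replicate 4 and none in the other 3 control vehicle libraries, and reached 11.6 ± 1.31 and 8.96 ± 1.46 CPM with TNFα in control and *Notch2tm1.1Ecan* cells. *Adam10* was not called in any comparison, and *Mmp7* had too few counts to be tested.

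Of 20 inducers of RANKL and their receptors, 17 could be tested for TNFα in control cells, where 10 rose and 3 fell (23.3 and 20.9% of all genes), and 19 in *Notch2tm1.1Ecan* cells, where 12 rose and 4 fell (22.6 and 21.9%). *Tnf* itself went from 0.179 ± 0.279 to 4.03 ± 0.462 CPM in control and from 0.204 ± 0.0732 to 7.30 ± 0.960 CPM in *Notch2tm1.1Ecan* cells, and with TNFα it was higher in the latter (log2 0.85, adjusted p = 0.000331). In control vehicle cells *Tnf* had 1, 0, 1 and 10 counts, and without replicate 4 its rise was log2 6.34 in place of 4.38. *Pthlh*, which encodes PTHrP, had 1, 1, 0 and 7 counts in control vehicle libraries and rose by log2 3.95 in control and 4.49 in *Notch2tm1.1Ecan* cells, or by 5.51 in control cells without vehicle replicate 4 and 5.27 in *Notch2tm1.1Ecan* cells without vehicle replicate 3, while *Pth1r*, its receptor, fell by log2 1.78 and 1.40. *Il6* was 0.769 ± 0.285 CPM in control and 1.65 ± 0.625 CPM in *Notch2tm1.1Ecan* cells with TNFα (log2 1.11, adjusted p = 0.0359), a call lost without control TNFα replicate 1 (adjusted p = 0.105) or 3 (0.0958) or *Notch2tm1.1Ecan* TNFα replicate 2 (0.0789) or 3 (0.276). *Vdr*, the receptor of active vitamin D, was higher in *Notch2tm1.1Ecan* cells with vehicle (log2 0.71), and *Il1r1*, the receptor of IL1, under both treatments (log2 0.25 and 0.46).

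Restraints on osteoclasts went both ways. Of 7, only 4 could be tested for TNFα in control cells, where 2 rose and 2 fell (23.3 and 20.9% of all genes), and 3 in *Notch2tm1.1Ecan* cells, where 1 rose and 2 fell (22.6 and 21.9%). *Sema3a*, a semaphorin that inhibits osteoclast formation, fell with TNFα by log2 1.04 in control and 1.45 in *Notch2tm1.1Ecan* cells, and was lower in *Notch2tm1.1Ecan* cells by log2 0.48 with vehicle and 0.89 with TNFα (log2 -0.89, adjusted p = 6.36e-08). Its mean was 94.3 CPM in control vehicle and 23.7 CPM in *Notch2tm1.1Ecan* TNFα cells, and its interaction was not called (adjusted p = 0.342) except without *Notch2tm1.1Ecan* vehicle replicate 1 (log2 -0.50, adjusted p = 0.0129). *Wnt16*, an inhibitor of osteoclast formation, fell with TNFα by log2 0.78 in control cells, and by log2 0.42 in *Notch2tm1.1Ecan* cells, a call lost without TNFα replicate 1 (adjusted p = 0.111) or 3 (0.0595) or vehicle replicate 4 (0.0807), and was higher in *Notch2tm1.1Ecan* cells by log2 0.64 with vehicle and 1.00 with TNFα. *Il18* rose by log2 0.92 and 1.06 with TNFα. *Ifnb1*, the other restraint that rose in control cells, had 14 counts there with TNFα against 1 with vehicle. That call was lost without control vehicle replicate 1 (adjusted p = 0.0585) or 3 (0.05175). *Ifng*, *Il10* and *Il4* had too few counts to be tested.

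Of the chemokines that draw precursors, *Ccl2* (1310 ± 156 CPM in control and 1658 ± 238 CPM in *Notch2tm1.1Ecan* cells with TNFα, SD, n = 4), *Ccl7* (log2 3.23 and 3.14) and *Cx3cl1* (log2 3.51 and 4.08) rose with TNFα, and *Cxcl12* fell (log2 -0.20 and -0.43). In control vehicle replicate 4, the library that stood apart, *Ccl2* was 201.5 CPM against 14.4 to 16.1 CPM in the other 3, *Ccl7* 63.0 against 19.8 to 21.9 CPM and *Cx3cl1* 173.8 against 39.6 to 45.5 CPM. Without that library the rise in control cells was log2 6.41 for *Ccl2*, 3.83 for *Ccl7* and 4.34 for *Cx3cl1*, and each was called higher in *Notch2tm1.1Ecan* than in control cells with vehicle (log2 0.57, 0.76 and 0.32), and the interaction of *Ccl7* was called (log2 -0.70, adjusted p = 0.00154). *Cxcl12*, which holds precursors in the marrow, was higher in *Notch2tm1.1Ecan* cells by log2 0.91 with vehicle (adjusted p = 5.50e-12) and 0.70 with TNFα (adjusted p = 1.23e-09). *Csf2* was called in control cells on 12 counts with TNFα against 0 with vehicle, and *Csf3* in *Notch2tm1.1Ecan* cells on 0 counts with TNFα against 11 with vehicle, a call lost without any 1 of the 4 TNFα libraries.

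Of 10 transducers of the RANK signal, 7 rose and 1 fell with TNFα in control cells (23.3 and 20.9% of all genes), and 8 rose and 1 fell in *Notch2tm1.1Ecan* cells (22.6 and 21.9%). The rise of *Nfatc1* in control cells (log2 0.18) lost its call in some fits that left out a library (adjusted p up to 0.172). In *Notch2tm1.1Ecan* cells the same held for *Nfatc1* (log2 0.30, adjusted p up to 0.076) and *Traf6* (log2 0.25, up to 0.077). *Relb* rose by log2 3.16 and 3.63 and *Nfkb2* by 2.44 and 2.86, both of the noncanonical NF-κB pathway, and *Fos* fell by log2 1.91 and 2.42. In control vehicle replicate 4, the library that stood apart, *Relb* was 33.7 CPM against 14.2 to 16.6 CPM in the others of its group. *Nfkb2* was 76.6 CPM there against 40.1 to 43.8 CPM, so this library lowers the rise given for both genes in control cells. *Spi1*, a myeloid factor, was higher in *Notch2tm1.1Ecan* cells 2.14-fold with vehicle and 1.87-fold with TNFα, the latter not without *Notch2tm1.1Ecan* TNFα replicate 2 (adjusted p = 0.0825).

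**Figure D4:**
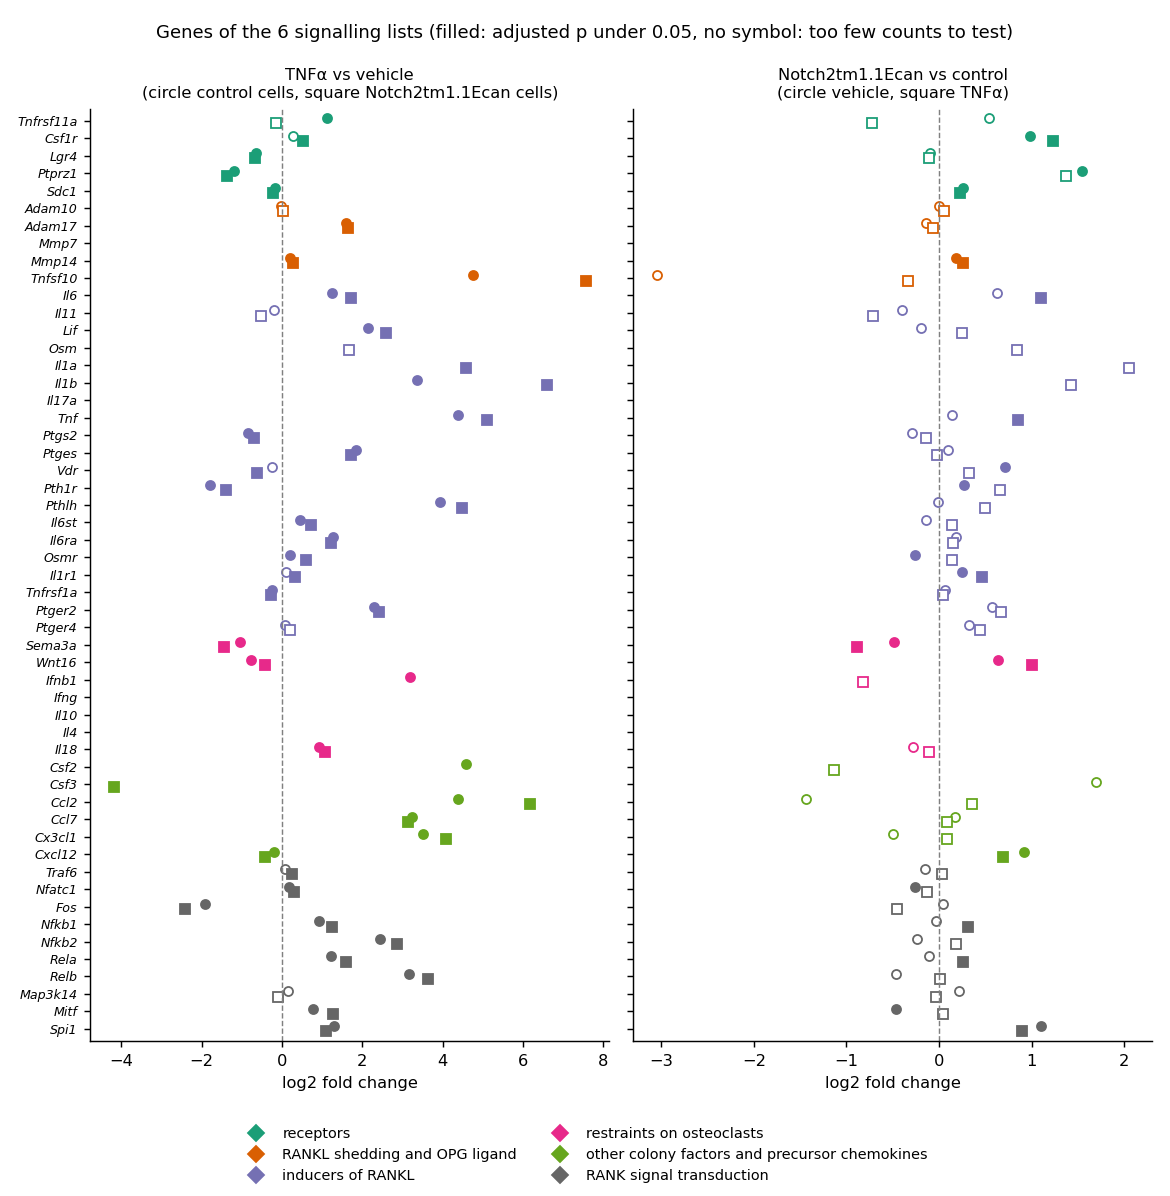
Log2 fold change (horizontal axes) of the genes of the 6 lists for TNFα against vehicle (left) and *Notch2tm1.1Ecan* against control (right). Circles are control cells (left) or vehicle (right), squares are *Notch2tm1.1Ecan* cells (left) or TNFα (right), color marks the list, filled symbols have an adjusted p under 0.05, and genes with too few counts have no symbol. Values of *Csf2* and *Csf3*, at 0 counts in a group, depend on the prior count of the fit and are no measure of size. TNFα called 37 of 45 tested genes in control cells (44.2% of all genes), whereas genotype called 14 of 43 with vehicle (10.5% of all genes) and 12 of 47 with TNFα (9.94%).

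Across the 16 libraries, each signal had its own nearest neighbors by Pearson r of log2 CPM among 13431 genes of at least 1 CPM. The points share 4 groups and a large TNFα contrast, so r is a description. *Tnfrsf11b* was most like *Nt5e* (r = 0.987), an ecto-nucleotidase, *Cdkn1c* (0.986), a cyclin-dependent kinase inhibitor, and *Thbd* (0.986), which encodes thrombomodulin. *Tnfsf11* was most like *Pgpep1* (0.956), *Rtl8b* (0.955) and *Rab11b* (0.951). *Csf1* was most like *Ppp1r12b* (0.979), *B4galnt1* (0.976) and the AP-1 subunit *Junb* (0.976), and *Il34* was most like *Mfhas1* (0.995), *Ifngr1* (0.994), a chain of the interferon-γ receptor, and *Slc15a3* (0.994). Between the signals, r was 0.956 for *Csf1* with *Il34*, 0.906 for *Csf1* with *Tnfsf11*, -0.83 for *Tnfrsf11b* with *Il34* and -0.50 for *Tnfrsf11b* with *Tnfsf11*.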

How the data were processed

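RNA-Seq was done on 16 libraries from stranded mRNA kits, run as one pool. The authors deposited counts per gene, whole numbers for 55414 Ensembl identifiers plus 5 entries that name no gene, which made up 8.81 to 12.1% of the counts of a library and entered no step. Per the labels' processing notes, reads were mapped to GRCm38 with HISAT2 2.1.0, whereas the published methods name GRCm39 and a later release of HISAT2. The counting was by HTSeq, and its strand setting is not given in the sources used here. Names, positions and exon lengths come from GENCODE M39 (GRCm39), which lacks 665 identifiers that hold 0.0182% of counts. All replicate pairs differed by more than sampling noise.

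edgeR 4.0.16 (R 4.3.3) was fitted with TMM factors and robust quasi-likelihood to genes with at least 10 counts summed over the compared libraries, on the 8 libraries of each of 4 comparisons and on all 16 for the interaction. Adjusted p values are Benjamini-Hochberg over all genes tested. Ratios used log2 of counts plus 0.5 and exact permutation tests (scipy 1.17.1), with genotype labels permuted within each treatment for the interaction. The fits were tested on simulated data with 200 changed genes. Alternatives were DESeq2 1.42.0, other scaling and filters, a replicate block, a fold cutoff, one fit to all libraries and libraries left out. Named genes were the signals, Notch2, Heyl and Icam1, up to 4 called genes per list and comparison by size of change, up to 2 defining genes near 0, and 3 nearest genes per signal; genes of the lists outside that rule were named after their values were seen. The 4 signals and all lists were chosen with earlier results of these data known.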

Additional observations from a re-analysis of the deposited data

Results flagged for a closer look

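*Tnfrsf11b* was 276 CPM in control TNFα replicate 4, far from the 231 to 238 CPM of the other 3 libraries of that group. *Icam1* was 439 CPM in control vehicle replicate 4, far from the 34.4 to 40.4 CPM of the others. Of 36 groups of libraries examined for such gaps, 2 were marked, and chance marks about 1 in 20. The *Icam1* mark does not stand alone, however. On the first principal component of log2 CPM (79.4% of the variance), that library lay at -16.5 and the others of its group at -51.2 to -49.9. Control TNFα replicate 4 lay at 35.8 there, against 47.3 to 50.5 in the rest of its group. The cause was not tested. The TNFα effect on *Tnfrsf11b* differed between genotypes by log2 -0.47 (edgeR interaction, adjusted p = 0.00383), with lower values in 4 of 4 libraries with TNFα in each genotype.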

How the results depend on the processing

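The calls for *Tnfrsf11b* held in every comparison under each alternative but the fold cutoff, which its interaction (log2 -0.47) also fails and 10 genes pass. Requiring a log2 fold change of at least 1 removed the calls of *Tnfrsf11b* for TNFα in control cells (log2 -0.92) and for genotype with vehicle (-0.80), of *Csf1* for TNFα in control (0.52) and *Notch2tm1.1Ecan* cells (0.30) and for genotype with vehicle (0.17), and of *Tnfsf11* (-0.61) and *Il34* (0.39) for genotype with TNFα. The counts of called genes became 2279 and 2720 for TNFα in control and *Notch2tm1.1Ecan* cells and 244 and 272 for genotype with vehicle and TNFα. DESeq2 called the interaction of *Csf1* (log2 -0.20), and it called 206 interactions where edgeR called 101. Testing all genes with at least 1 count gave 266 interactions, and under it *Il34* for genotype with vehicle was called (log2 0.42, adjusted p = 0.0488). Library totals in place of TMM factors moved the interaction calls from 57 higher and 44 lower (56.4% higher) to 48 and 56 (46.2%).

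Without both control replicates 4, *Il34* for genotype with vehicle was called (log2 0.65), as was its ratio to *Csf1* (0.50). The *Tnfsf11* to *Tnfrsf11b* ratio for genotype with vehicle lost its call (1.16, adjusted exact p = 0.0714). Its groups still did not overlap, and the exact test has coarse steps with few libraries. The *Il34* to *Csf1* interaction reversed to -0.13 without both libraries, and it was -0.0703 without control vehicle replicate 4 alone. The *Il34* interaction, near 0, reversed without control vehicle replicate 2 (0.0927) or 3 (0.0263), control TNFα replicate 3 (0.0109) or *Notch2tm1.1Ecan* TNFα replicate 3 (0.0154). The cause was not tested.

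With 1 library left out, genotype with vehicle ranged from log2 0.14 to 0.18 for *Csf1* and from 0.30 to 0.65 for *Il34*, and genotype with TNFα from -0.72 to -0.55 for *Tnfsf11*. The *Il34* interaction ranged from -0.29 to 0.09 and the interaction count from 51 to 156. The *Tnfsf11* to *Tnfrsf11b* ratio ranged from log2 2.86 to 3.12 for TNFα in control cells, 1.08 to 1.35 for genotype with vehicle and 0.40 to 0.69 for genotype with TNFα, and the *Il34* to *Csf1* ratio from 0.16 to 0.50 for genotype with vehicle and -0.07 to 0.27 for the interaction.

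Replicate numbers showed no clear pairing of the libraries (r of deviations -0.19 to 0.142). Such weak r values cannot exclude that cultures of the same number shared a cell preparation, and the labels do not state it. With the replicate number as a block, no call of a signal changed (*Tnfsf11* for genotype with TNFα log2 -0.69, adjusted p = 0.0115), the interaction count was 74, and no gene of the 6 lists was called in it. The exact test of the ratios by replicate number cannot give a p below 0.125. Depth limits *Tnfsf11*, with 8 to 114 counts a library.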

Other observations

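Of 10 osteoclast markers, *Dcstamp* and *Ocstamp*, which serve cell fusion, had 3 counts or fewer in each library. Of the 8 tested for TNFα, 5 rose in control and 4 in *Notch2tm1.1Ecan* cells, where 23.3 and 22.6% of all genes rose, and none fell. *Mmp9*, a gelatinase of osteoclasts that other cells also make, had 11, 4, 9 and 112 counts in control vehicle libraries and rose with TNFα by log2 4.36 in control and 4.73 in *Notch2tm1.1Ecan* cells. Without control vehicle replicate 4 the rise in control cells was log2 6.39, and *Mmp9* was called higher in *Notch2tm1.1Ecan* cells with vehicle (log2 1.64, adjusted p = 0.00165) and its interaction was called (log2 -1.68, adjusted p = 0.000807). *Calcr*, the calcitonin receptor, had 0, 0, 0 and 6 counts in control vehicle and 1 count in all in *Notch2tm1.1Ecan* vehicle libraries, and was 2.16 ± 0.648 and 3.05 ± 0.599 CPM (SD, n = 4) with TNFα, called in both. *Acp5* (log2 0.67 and 1.01) and *Itgb3* (log2 0.63 and 0.84) rose as well, and *Ctsk* was not called in any comparison. With TNFα, *Atp6v0d2*, *Itgb3* and *Trem2* were higher in *Notch2tm1.1Ecan* than in control cells (log2 1.82, 0.42 and 1.02), 3 of 8 tested against 5.63% of all genes. With *Ctsk* at a mean of 181 CPM in control vehicle cells, the 10 markers summed to 203 to 209 CPM in control vehicle and 198 to 226 CPM in *Notch2tm1.1Ecan* vehicle libraries. With TNFα they summed to 247 to 259 CPM in control and 248 to 269 CPM in *Notch2tm1.1Ecan* libraries, so the genotypes overlapped under each treatment.

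Of 8 osteoblast and hypertrophic markers, 1 rose and 4 fell with TNFα in each genotype, where 44.2% of all genes were called in control and 44.5% in *Notch2tm1.1Ecan* cells. *Spp1* rose by log2 0.50 and 0.59, and *Sp7*, a factor of the osteoblast lineage, fell by log2 2.58 and 4.23, or by 3.21 in control cells without TNFα replicate 4. These cells are another source of *Tnfsf11*, and the part of their change in its values was not tested.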
